A study of Rattus norvegicus with 15 samples.

Results

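Rat hepatocytes exposed to 1,5-naphthalenediol were compared with hepatocytes exposed to the solvent DMSO. 1,5-Naphthalenediol is naphthalene with a hydroxyl group on each of its rings. The comparison uses the arrays labelled with this diol (3 arrays) and the arrays labelled as DMSO control (3 arrays), which are 6 of the 15 arrays of the series. The other 9 arrays hold 2,7-naphthalenediol, 1-naphthol and naphthalene, 3 arrays each. All cells were cryopreserved primary hepatocytes of male Wistar rats (spelled Wister in the labels), from 1 commercial supplier. They were pre-cultured for 24 h and then exposed for 24 h, to 30 µM of the compound or to DMSO. Per the labels, every condition was run in 3 independent experiments, and the number of donor animals behind each is not given in the sources used here. The study asked how naphthalene and its analogs compare in the liver, as read-across of liver toxicity requires. A plated hepatocyte culture holds few of the other cells of the liver, and its expression of liver enzymes falls with time in culture.

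Hepatocytes clear aromatic compounds in steps. Cytochrome P450 enzymes add an oxygen, and conjugating enzymes then attach glucuronic acid, sulfate or glutathione, after which export pumps carry the product out. A diol on the naphthalene rings can be oxidised to a quinone, which is reduced again by quinone reductases or bound by glutathione. The aryl hydrocarbon receptor (AhR) is a ligand-activated transcription factor for planar aromatic compounds, with CYP1 enzymes, Nqo1 and Aldh3a1 among its known targets. NRF2 is the transcription factor that responds to electrophiles, and it drives glutathione transferases, quinone and carbonyl reductases and the enzymes that supply NADPH.

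Expression was read on 1-colour rat arrays. Signals are in intensity units scaled so that the 75th percentile of each array lies at 1919, and a change is the log2 difference, 1,5-naphthalenediol minus DMSO, ± its standard error. A gene was called higher or lower at a Benjamini-Hochberg adjusted p below 0.05 in limma, in 1 model of all 15 arrays with n = 3 per group. All 12 hepatocyte markers lay well above background on each of the 6 arrays. Their summed signal ranged from 1035630 to 1101550 units with 1,5-naphthalenediol and from 1121930 to 1147230 units with DMSO. Macrophage markers were detected for 3 of 13 genes (549 to 571 units in sum with the diol, 532 to 558 with DMSO), and Adgre1, Cd163, Clec4f and Ptprc never were. Between 57.8% and 59.8% of gene spots lay well above background. The 1,5-naphthalenediol array 3 lies on another slide than the other 5 arrays. Its log2 differences from arrays 1 and 2 had a standard deviation of 0.287 and 0.292 over the genes tested, against 0.214 between arrays 1 and 2 and 0.201 to 0.234 among the DMSO arrays.

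Of 19784 genes tested, 4387 (22.2%) differed between 1,5-naphthalenediol and DMSO. Of these, 1863 (9.42%) were higher and 2524 (12.8%) lower. Most changes were small. The median called gene was 23.8% higher in the group that rose and 16.4% lower in the group that fell. Changes of at least 2-fold were seen for 85 genes that rose and 82 that fell, and changes of at least 4-fold for 19 that rose and 2 that fell. The diol and DMSO arrays did not overlap for 7561 genes (38.2%). Scaled by the median in place of the 75th percentile, 1244 genes were higher and 3616 lower, so the share of higher calls was 25.6% in place of 42.5%, and the median change of all genes was -0.06 in place of -0.01. On slide 1 alone, which leaves out 1,5-naphthalenediol array 3 and all arrays of 1-naphthol and naphthalene, 1529 genes were higher and 2027 lower. With only 1,5-naphthalenediol array 3 left out, 1820 were higher and 2568 lower. With only replicates 1 and 2 of both groups in the fit, 59 genes were higher and 28 lower, of which 54 and 25 were also called with all arrays. Of the 166 called genes named here all kept their direction on replicates 1 and 2, at 0.682 to 1.34 times the log2 change from all arrays (median 1.02), and 18 were called. These replicates are part of the arrays that selected the genes, so the shared direction and size are no independent check. Aldh3a1, Gstp1, Akr1b8, Nqo1, Hspb1 and Cyp1a1 were among the 18, with log2 changes of 3.70, 2.33, 1.73, 1.58, 2.68 and 2.19 (adjusted p = 0.00559, 0.0163, 0.0323, 0.0365, 0.0410 and 0.0494). With only the 6 arrays of the diol and DMSO in the fit, the log2 changes were the same, but the calls of Aldh1l2, Atf3, Glul, Gsta4, Ifit2, Lamp2, Oasl2, Por, Tap1 and Zfp365 were lost (adjusted p between 0.0515 and 0.0919).

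**Figure D1:**
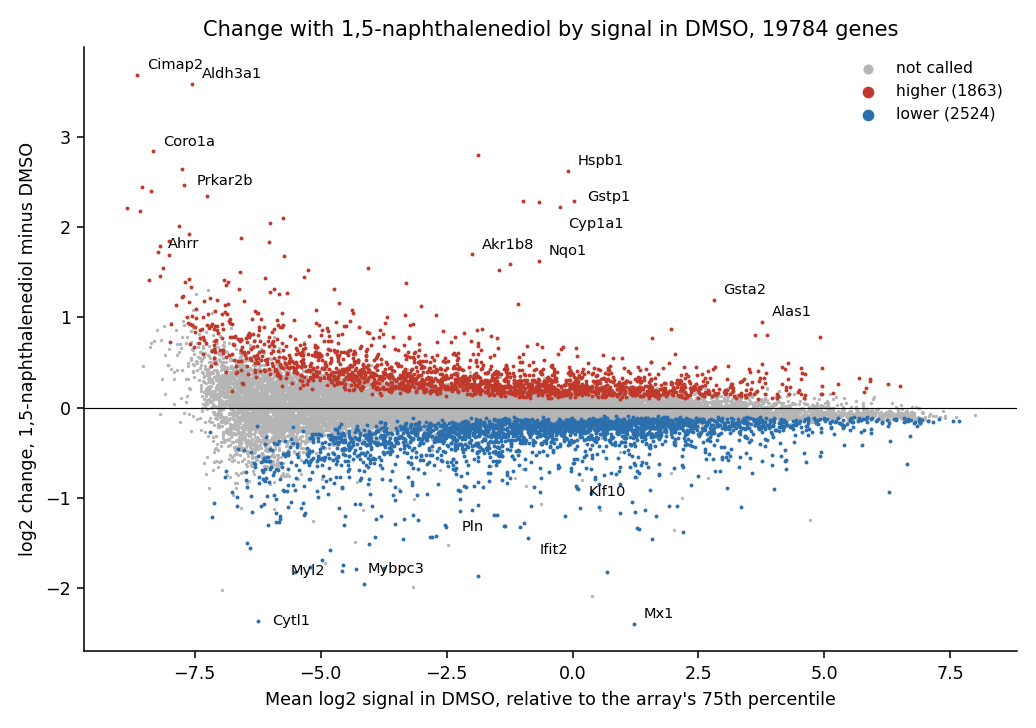
Each point is 1 of the 19784 genes tested. The x axis gives the mean log2 signal on the 3 DMSO arrays relative to the array's 75th percentile, and the y axis the log2 change, 1,5-naphthalenediol minus DMSO. Red genes were called higher (1863) and blue genes lower (2524). The largest rises include genes below background in DMSO, such as Cimap2 and Coro1a, as well as Hspb1, Gstp1 and Cyp1a1, which were well above it.

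The genes were read in lists by pathway, chosen with earlier results of these data known. A list is described by how many of its tested members were called and by its median change. Each count is to be read against the 9.42% of all genes that rose and the 12.8% that fell, and each median against the -0.01 of all genes. Interferon-stimulated genes, cholesterol synthesis, the tricarboxylic acid cycle, autophagy and lysosomal genes and the amino acid response had the largest shares of falls. The list of AhR, its repressor and its targets, cell cycle genes, metal-binding genes and quinone and carbonyl reductases had the largest shares of rises. These shares were not tested against other lists.

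**Figure D2:**
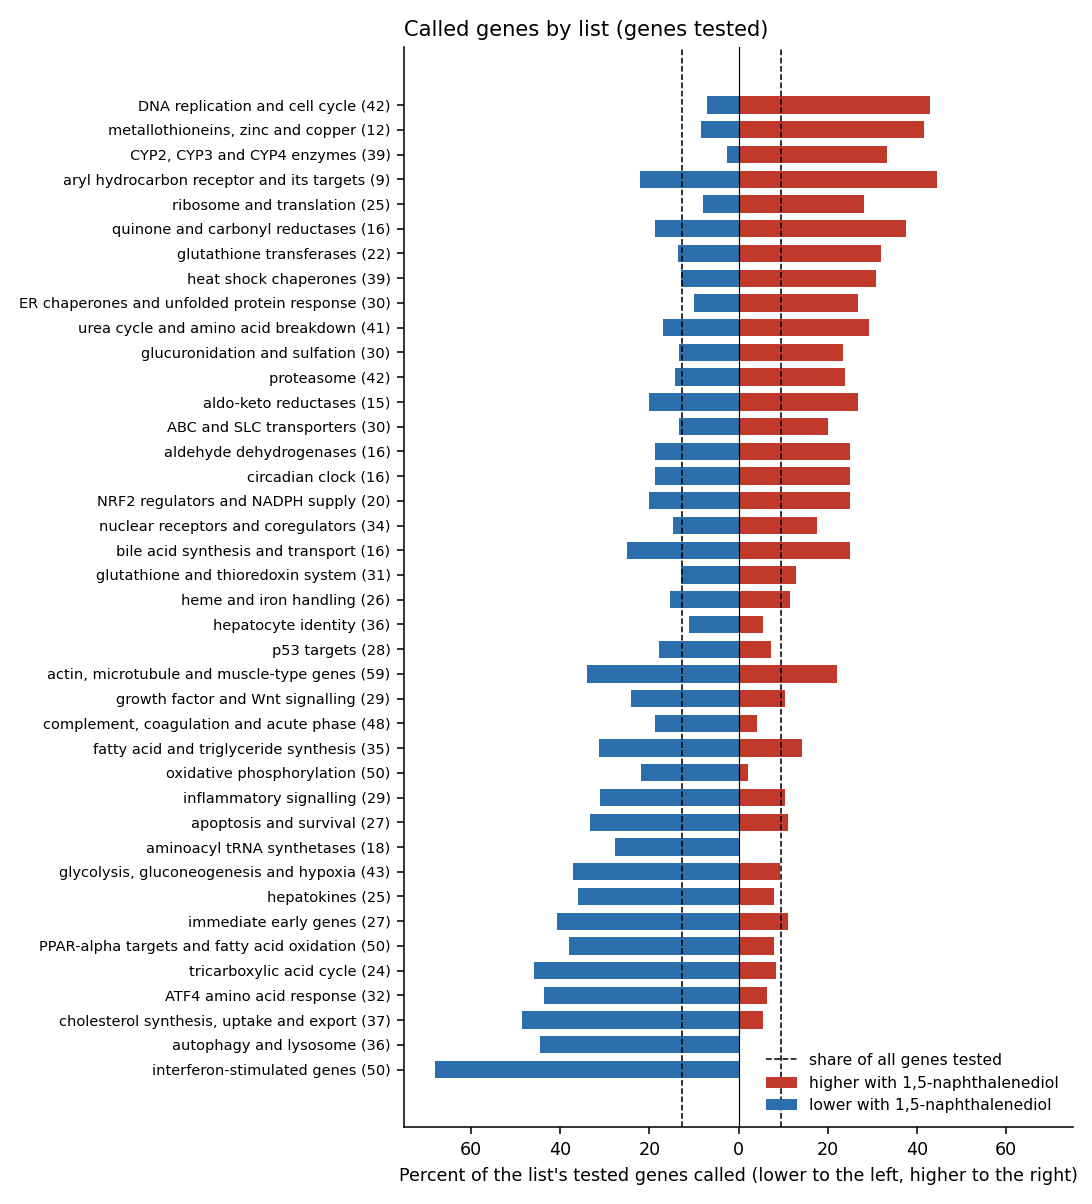
Percent of the tested genes of each list (number tested in parentheses) that were called higher with 1,5-naphthalenediol than with DMSO (red, to the right) or lower (blue, to the left). The dashed lines give the shares of all 19784 genes, 9.42% higher and 12.8% lower. The interferon-stimulated genes reach furthest to the left, with 34 of 50 lower.

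Large rises were found around AhR. Of 9 tested genes of the receptor, its partner, its repressor and its targets, 4 rose and 2 fell (median log2 change 0.11), and of the 6 targets among them 2 rose and 2 fell. The 4 rises held with any 1 array left out, while the falls came to 1 without 1,5-naphthalenediol array 1 or without DMSO array 1, 2 or 3, and under normexp or quantile normalization. Aldh3a1, an aldehyde dehydrogenase that oxidises aromatic aldehydes, had 133, 129 and 107.3 units with 1,5-naphthalenediol, against 10.05, 10.1 and 10.5 units with DMSO. The DMSO arrays were not well above background for it, so the rise is at least 7.57-fold (measured log2 change 3.58 ± 0.11, limma adjusted p = 8.99e-10). Cyp1a1, which hydroxylates polycyclic aromatic compounds, had 8129, 6450.3 and 8183 units with 1,5-naphthalenediol, against 1467, 1715 and 1673 units with DMSO. All 3 diol arrays lay far above the DMSO arrays, and the log2 change was 2.22 ± 0.12 (adjusted p = 3.95e-07).

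Ahrr encodes the repressor that AhR induces and that competes with it. It had 40.5, 26.7 and 38.2 units with 1,5-naphthalenediol, against 12.3, 11.5 and 4.49 units with DMSO. All 3 DMSO arrays were below background, and the rise was at least 2.13-fold (log2 2.01 ± 0.39, adjusted p = 0.00374, and 0.0502 on slide 1 alone). Ahr itself rose by 0.24 (adjusted p = 0.00731), a value taken from its brightest probe. With the mean of its probes the adjusted p was 0.0805. Cyp1a2, the other CYP1 enzyme of the liver, had 1992, 2001 and 2162 units with 1,5-naphthalenediol, against 1956, 1931 and 2025 units with DMSO. The arrays overlapped, and its log2 change was 0.06 (adjusted p = 0.558). Cyp2s1, a P450 known as an AhR target in the mouse, fell by 0.21 (adjusted p = 0.01). The promoter of Ahrr is shown because AhR binds a short core sequence. The core searched was TNGCGTG, on both strands, from 250 bases before to 50 bases after the start in RefSeq (assembly GRCr8). It was found in 5.12% of 27457 rat promoters (7.83% of the 8694 of genes tested here), and in 1 of the 2 promoters available for the AhR list genes that rose. The 250 bases before the start of Ahrr, at GRCr8 chr1:30821969-30822218 on the plus strand, carry it once, in capitals:
Ahrr: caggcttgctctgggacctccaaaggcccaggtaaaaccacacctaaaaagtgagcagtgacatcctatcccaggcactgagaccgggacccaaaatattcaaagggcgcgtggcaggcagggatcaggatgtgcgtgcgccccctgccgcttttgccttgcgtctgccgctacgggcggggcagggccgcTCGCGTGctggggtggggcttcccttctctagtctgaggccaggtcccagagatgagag

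Several enzymes that reduce quinones and carbonyls rose as well. Of 16 tested genes of this group, 6 rose and 3 fell, with a median change of 0.02. The 6 rises held with any 1 array left out, and the falls came to 1 without 1,5-naphthalenediol array 3, DMSO array 1 or DMSO array 3, under normexp and with the slide or the replicate number as a block. Nqo1, the quinone reductase that passes a pair of electrons to its substrate, had 3841, 3569 and 3833 units with 1,5-naphthalenediol, against 1210.3, 1271 and 1157 units with DMSO. The groups lay far apart, with a log2 change of 1.63 ± 0.06 (adjusted p = 8.71e-09). Its relative Nqo2 moved the other way and fell by 0.21 (adjusted p = 0.0023). Ptgr1, which reduces the double bond of unsaturated aldehydes and ketones, had 41182, 43296 and 39210.0 units with 1,5-naphthalenediol, against 24025, 22629 and 24093 units with DMSO. The groups did not overlap, and it rose by 0.81 ± 0.05 (adjusted p = 7.66e-07). Smaller rises were those of Xdh (log2 0.56, adjusted p = 9.68e-05), Aox1 (log2 0.45, adjusted p = 1.96e-05) and Ephx1 (log2 0.43, adjusted p = 0.00709), which encode xanthine dehydrogenase, aldehyde oxidase and the microsomal epoxide hydrolase. Por, the reductase that feeds electrons to the P450 enzymes, rose by 0.34 (adjusted p = 0.0107).

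Among 15 aldo-keto reductases, 4 rose and 3 fell (median 0.07). Akr1b8, which reduces aldehydes such as retinal, had 1531, 1624 and 1513 units with 1,5-naphthalenediol, against 471, 483 and 486 units with DMSO. The 3 values within each group lay close together, and the log2 change was 1.70 ± 0.05 (adjusted p = 5.79e-10). Akr7a3, the aflatoxin aldehyde reductase, had 48794, 51134 and 46622 units with 1,5-naphthalenediol, against 29059, 26914 and 27814 units with DMSO. It rose by 0.81 ± 0.04 (adjusted p = 4.5e-07). Akr1c13 rose by 0.42 (adjusted p = 0.00252), while Akr1c1 fell by 0.29 (adjusted p = 0.00229). Of 16 aldehyde dehydrogenases, Aldh3a1 included, 4 rose and 3 fell (median -0.02). Aldh4a1 and Aldh1l1, mitochondrial and cytosolic enzymes of proline and folate metabolism, rose by 0.43 and 0.31 (adjusted p = 0.000321 and 0.000175). Aldh18a1 and Aldh1l2, which make proline precursors and use mitochondrial folate, fell by 0.35 and 0.40 (adjusted p = 0.00218 and 0.00586).

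Glutathione transferases couple glutathione to electrophiles, and 7 of the 22 tested rose while 3 fell (median change 0.08). When the median set the scale, 5 rose and 5 fell. Gstp1, the pi-class enzyme that is low in normal rat liver and a known marker of altered hepatocytes, had 9342, 9906 and 9383 units with 1,5-naphthalenediol, against 1885, 1955 and 2024 units with DMSO. Both groups were tight, and its log2 change of 2.29 ± 0.04 had an adjusted p of 1.6e-11, which no other gene undercut. Gsta2 and Gsta5 are alpha-class enzymes of the liver. Gsta2 had 28290.5, 30692 and 32676 units with 1,5-naphthalenediol, against 13352, 13614 and 13126 units with DMSO. It rose by 1.19 ± 0.07 (adjusted p = 8.76e-07). Gsta5 had 93849.9, 103141 and 101077 units with 1,5-naphthalenediol, against 57505, 57656 and 57975 units with DMSO. All diol arrays lay above all DMSO arrays (log2 change 0.78 ± 0.06, adjusted p = 9.94e-06). Gsta3 and Gsta4 rose by 0.51 and 0.20 (adjusted p = 2.57e-05 and 0.00622), and Gstm3 and Gsta6 fell by 0.41 and 0.25 (adjusted p = 0.000988 and 0.000767). The alpha-class genes are close relatives, and how far 1 probe reads several of them was not tested.

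The promoter of Gstp1 is shown for the antioxidant response element, the site bound by NRF2. The letters searched were TGACNNNGC on both strands of the same windows, found in 12.2% of all 27457 promoters and 14.6% of those of genes tested. Among the genes of the reductase, transferase, glutathione and NADPH lists, 7 of 22 promoters of genes that rose held it, against 3 of 16 of genes that fell and 10 of 54 of genes not called. Those of Gpx2, Gsta2, Gsta3, Gstp1, Me1 and Ugdh were among the 7. In Gstp1 the match begins 61 bases before the start, at GRCr8 chr1:210769706-210769955 on the minus strand, and stands in capitals:
Gstp1: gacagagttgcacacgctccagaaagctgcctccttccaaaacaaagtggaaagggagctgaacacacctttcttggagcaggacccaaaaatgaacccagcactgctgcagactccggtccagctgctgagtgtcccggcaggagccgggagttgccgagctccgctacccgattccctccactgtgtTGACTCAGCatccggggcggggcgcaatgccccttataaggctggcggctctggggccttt

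Of 31 tested genes of the glutathione and thioredoxin system, 4 rose and 4 fell (2 without DMSO array 3), and the median change was -0.03. The calls lay among the 14 genes of peroxide removal, of which 2 rose and 4 fell, and the 6 of glutathione breakdown, of which 2 rose. Gclc, the catalytic subunit of the enzyme that limits glutathione synthesis, had 3856, 3845 and 4041 units with 1,5-naphthalenediol, against 3475, 3693 and 3561 units with DMSO. The arrays did not overlap, but the change of 0.13 was not past the threshold (adjusted p = 0.111). Other genes widely used as NRF2 reporters were not called either: the log2 change was 0.13 for the cystine transporter Slc7a11, 0.18 for thioredoxin reductase Txnrd1, -0.03 for sulfiredoxin Srxn1 and 0.17 for heme oxygenase Hmox1 (adjusted p = 0.263, 0.108, 0.828 and 0.105). Gpx2, a glutathione peroxidase, rose by 0.37 (adjusted p = 0.000206), and its relative Gpx1 fell by 0.27 (adjusted p = 0.000876). Prdx6 and Prdx3, peroxiredoxins of the cytosol and the mitochondria, went opposite ways (log2 0.26, adjusted p = 0.00294 and log2 -0.25, adjusted p = 0.00155).

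Of 20 genes of NRF2 itself, its partners and the NADPH-producing enzymes, 5 rose and 4 fell (median 0.04). The 5 rises held with any 1 array left out, and the falls came to 2 without 1,5-naphthalenediol array 1 or 2 or DMSO array 2, and to 1 without DMSO array 3. Me1, the malic enzyme, rose by 0.23 (adjusted p = 0.000767). Nnt, the mitochondrial transhydrogenase, fell by 0.31 (adjusted p = 0.00285). The mRNA of NRF2 itself (Nfe2l2) and of its inhibitor Keap1 changed by 0.11 and 0.01, neither of them called (adjusted p = 0.104 and 0.942).

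**Figure D3:**
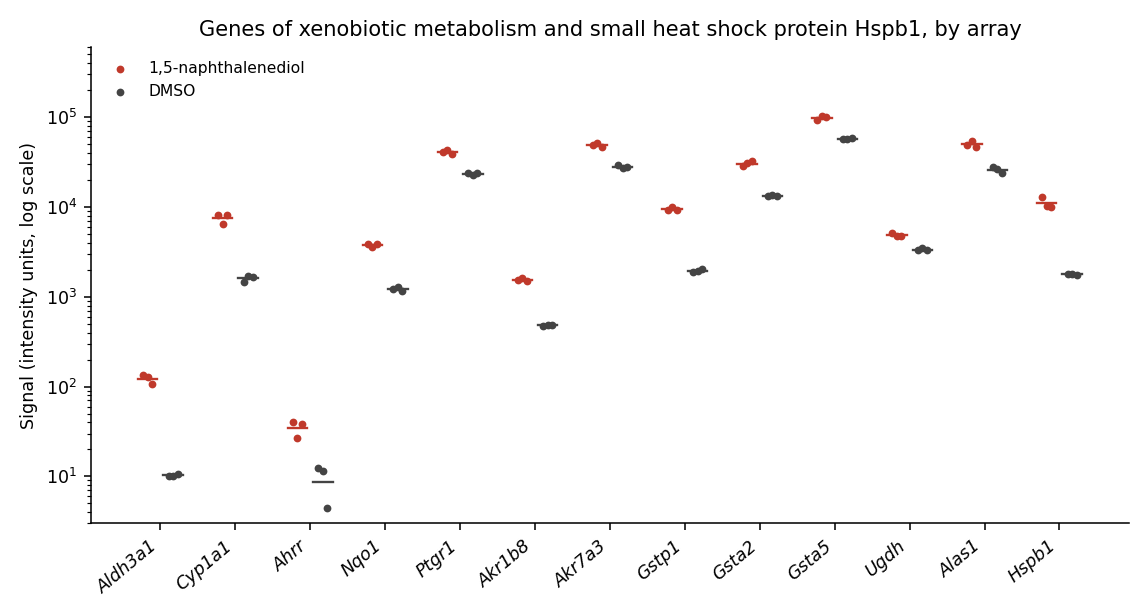
Signal of 13 genes on each array, in scaled intensity units on a log axis. Red points are the 3 arrays of 1,5-naphthalenediol, grey points to their right the 3 DMSO arrays, and bars the geometric means. For each gene shown all diol arrays lie above all DMSO arrays, with the widest gaps for Aldh3a1 and Hspb1.

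Conjugation and export showed a mixed picture. Of 30 tested genes of glucuronidation, sulfation and related conjugation, 7 rose (4 without DMSO array 3) and 4 fell, and the median was 0.00087. Ugt2b7, a glucuronosyltransferase, had 63.1, 45.6 and 60.9 units with 1,5-naphthalenediol, against 20.4, 19.1 and 19.6 units with DMSO. The groups did not overlap (log2 change 1.51 ± 0.16, adjusted p = 8.5e-05). Ugdh, which makes the UDP-glucuronic acid these enzymes use, had 5114, 4776 and 4796 units with 1,5-naphthalenediol, against 3289.6, 3452 and 3295 units with DMSO. It rose by 0.55 ± 0.07 (adjusted p = 0.000371). Nat8, which acetylates the cysteine conjugates left by the glutathione pathway, rose by 0.86 (adjusted p = 0.000923). Nnmt, which methylates nicotinamide, fell by 0.34 (adjusted p = 0.000649). Among 30 transporters, 6 rose and 4 fell (median 0.10), and 4 rose and 6 fell when the median set the scale. The 4 multidrug resistance proteins Abcc3, Abcc4, Abcc5 and Abcc2, which export conjugates, rose by 0.49, 0.31, 0.30 and 0.30 (adjusted p = 0.000836, 0.00129, 0.00331 and 0.00156). Abcb11, the bile salt export pump, and Slc2a2, the glucose transporter of the hepatocyte, fell by 0.22 and 0.31 (adjusted p = 0.00198 and 0.000404). Of 16 genes of bile acid synthesis and transport, 4 fell with any 1 array left out. The 4 that rose came to 2 without 1,5-naphthalenediol array 1 or DMSO array 2, and to 1 without 1,5-naphthalenediol array 2 or DMSO array 3. They came to 1 as well when the median set the scale and to 2 under normexp, and the median change of the 16 was 0.05.

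The P450 families that handle drugs, steroids and fatty acids held many small rises. Of 39 tested CYP2, CYP3 and CYP4 genes, 13 rose and 1 fell, with a median change of 0.12. The rises came to 8 without 1,5-naphthalenediol array 3 or DMSO array 2 and to 6 without DMSO array 3, and to 8 when the median set the scale or with the slide as a block. Cyp2b3 had 11048, 12186 and 12296 units with 1,5-naphthalenediol, against 7862, 8010.4 and 7578 units with DMSO. All 3 diol arrays were higher, by 0.60 ± 0.05 (adjusted p = 1.04e-05). Cyp2a1 and Cyp2a2, steroid hydroxylases of rat liver, rose by 0.49 and 0.56 (adjusted p = 0.000111 and 0.000248). Cyp2j3, an arachidonic acid epoxygenase, fell by 0.55 (adjusted p = 0.000951). Cyp2b2, Cyp3a23-3a1 and Cyp2e1, inducible by phenobarbital, dexamethasone and ethanol, changed by 0.20, 0.02 and 0.16 and were not called (adjusted p = 0.313, 0.884 and 0.334).

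Of 34 nuclear receptors and coregulators, 6 rose and 5 fell (3 fell without 1,5-naphthalenediol array 2 or DMSO array 2), with a median of 0.06. When the median set the scale, or with the replicate number as a block, 4 rose and 5 fell. Ppara, the receptor for fatty acids, had 647, 615 and 538 units with 1,5-naphthalenediol, against 367, 358 and 355 units with DMSO. It rose by 0.73 ± 0.08 (adjusted p = 6.47e-05). Nr1i3, the receptor CAR that induces CYP2B enzymes, had 135, 129.8 and 129.8 units with 1,5-naphthalenediol, against 104, 96.7 and 90.3 units with DMSO. The rise was 0.44 ± 0.09 (adjusted p = 0.00575). Nr1d2, a heme-binding repressor of the clock, fell by 0.48 (adjusted p = 2.71e-05).

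Alas1 makes the first and rate-limiting precursor of heme in the liver. It had 49441, 53974 and 47081 units with 1,5-naphthalenediol, against 28115, 26179 and 23763 units with DMSO. It rose by 0.95 ± 0.07 (adjusted p = 2.76e-06), and Tfrc, the transferrin receptor, rose by 0.46 (adjusted p = 0.000125). Of 26 heme and iron genes in all, 3 rose and 4 fell, with a median change of -0.03. The 4 falls came to 1 without DMSO array 1 and to 2 without DMSO array 3, and to 9 when the median set the scale. Under normexp 3 rose and 2 fell, and under quantile normalization 4 rose and 2 fell. Of 12 genes of metallothioneins, zinc and copper, 5 rose and 1 fell (2 without 1,5-naphthalenediol array 1 or 2 or under normexp, 3 when the median set the scale), with a median of 0.12. Mt1, a metallothionein that binds zinc and copper, had 194536, 214684 and 206862 units with 1,5-naphthalenediol, against 175814, 171097 and 174859 units with DMSO. It rose by 0.24 ± 0.04 (adjusted p = 0.00119). Mt2A rose by 0.32 (adjusted p = 0.000302) and the copper pump Atp7b by 0.33 (adjusted p = 0.00317).

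Heat shock chaperones were led by 1 gene. Hspb1, the small heat shock protein that binds unfolded proteins and actin, had 12976, 10366 and 9985 units with 1,5-naphthalenediol, against 1815, 1816 and 1749 units with DMSO. Array 1 of the diol was the highest, and all 3 lay far above DMSO (log2 change 2.62 ± 0.10, adjusted p = 1.23e-08). Of 39 tested genes of the list, 12 rose and 5 fell (3 fell without 1,5-naphthalenediol array 2 or DMSO array 3), with a median of 0.08. When the median set the scale, 8 rose and 8 fell. The remaining rises were small. Fkbp4 and Stip1, co-chaperones of HSP90, rose by 0.36 and 0.30 (adjusted p = 0.000154 and 0.000549). Hspe1 and Hspd1, which form the mitochondrial chaperonin, rose by 0.32 and 0.20 (adjusted p = 0.000304 and 0.00194). Hspa8, the constitutive cytosolic HSP70, had 163744, 162544 and 159745 units with 1,5-naphthalenediol, against 201220.0, 198854 and 201999 units with DMSO. It fell by 0.31 (adjusted p = 5.87e-05), as did its partner Dnaja1, by 0.34 (adjusted p = 0.00133). Hspa1a, the HSP70 that heat induces most, changed by 0.10 and was not called (adjusted p = 0.434).

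The heat shock element was searched on both strands as GAA, TTC and GAA with 2 bases of any kind between neighbours, and was present in 0.736% of the 27457 promoters and 0.414% of those of genes tested. It stood in 3 of 11 promoters of list genes that rose, Hspd1 and Hspe1 among them, in 2 of 4 of those that fell (Dnaja1 and Hspa8) and in 3 of 18 of those not called. Hspe1 is shown as a rising member that holds it. The window is GRCr8 chr9:64084077-64084326 on the plus strand, and the capitals span 2 overlapping matches that begin 65 and 60 bases before the start:
Hspe1: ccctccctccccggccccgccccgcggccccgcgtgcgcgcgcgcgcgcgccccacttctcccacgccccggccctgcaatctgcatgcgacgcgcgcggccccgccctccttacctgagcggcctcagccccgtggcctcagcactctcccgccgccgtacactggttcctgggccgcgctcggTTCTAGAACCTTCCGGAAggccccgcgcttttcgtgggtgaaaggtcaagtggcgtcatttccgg

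Proteasome subunits went both ways. Of 42 tested genes, 10 rose and 6 fell, with a median of 0.08. The 5 subunits and regulators of the immunoproteasome all fell, while 3 of 14 standard core subunits and 7 of 19 subunits of the regulatory particle rose, with 0 and 1 that fell. The rises came to 6 without 1,5-naphthalenediol array 2 or DMSO array 1, to 20 under quantile normalization and to 5, beside 7 falls, when the median set the scale. Psmd3, Psmb3 and Psmd14, of the standard proteasome, rose by 0.36, 0.33 and 0.27 (adjusted p = 0.00102, 0.000654 and 0.00368). Psmb8, Psmb9 and Psmb10, which replace standard subunits in the immunoproteasome and are induced by interferon, fell by 0.40, 0.57 and 0.36 (adjusted p = 0.00503, 0.00264 and 0.00675). Of 30 genes of the endoplasmic reticulum stress response, 8 rose and 3 fell (median 0.03). When the median set the scale 3 rose and 5 fell, and the falls came to 1 without DMSO array 1. Herpud1 and Syvn1, of the pathway that removes misfolded proteins, rose by 0.39 and 0.29 (adjusted p = 0.000458 and 0.000623). The chaperone Hspa5 and the stress factor Ddit3, the usual readouts of that response, changed by 0.01 and -0.04 (adjusted p = 0.902 and 0.855).

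Interferon-stimulated genes were the list with the largest share of falls. Of 50 tested genes, 34 fell and none rose, with a median change of -0.86, beside 12.8% of all genes called lower and a median of -0.01. At an unadjusted p below 0.05, 1 was higher and 44 were lower in limma. Their level varied among the DMSO arrays. Relative to the mean of the DMSO arrays, the 50 genes averaged -0.87, -1.04 and -0.58 on the 3 diol arrays, against -0.42, 0.29 and 0.14 on the DMSO arrays. DMSO array 1 thus lay between the diol arrays and DMSO arrays 2 and 3. The number that fell came to 18 without 1,5-naphthalenediol array 2, 17 without DMSO array 2 and 21 without DMSO array 3. With replicates 1 and 2 alone, none of the 50 was called, and 36 were lower at an unadjusted p below 0.05.

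Mx1, a GTPase that blocks viral replication, had 732, 667 and 1243 units with 1,5-naphthalenediol, against 1912, 7928 and 5821 units with DMSO. The groups did not overlap, and DMSO array 1 was the lowest of its group (log2 change -2.39 ± 0.46, adjusted p = 0.00324). Ifit2, which binds viral RNA, had 378, 362 and 398 units with 1,5-naphthalenediol, against 572, 1252 and 1539 units with DMSO. The order of the arrays was similar, and it fell by 1.45 (adjusted p = 0.00962). Among sensors and signalling proteins, Ifih1 and Dhx58, receptors for viral RNA in the cytosol, fell by 0.88 and 0.87 (adjusted p = 0.00605 and 0.00844). Stat2, which carries the signal of the interferon receptor to the nucleus, fell by 0.56 (adjusted p = 0.00469). Tap1, the peptide pump of antigen presentation, had 419, 371 and 472 units with 1,5-naphthalenediol, against 555, 918 and 755 units with DMSO. It fell by 0.80 (adjusted p = 0.00412). Gbp5, Parp9 and the chemokine Cxcl11 fell by 1.04, 0.95 and 1.19 (adjusted p = 0.000175, 0.00707 and 0.00257).

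Oasl2 and Ifi47 fell by 1.82 and 1.32 (adjusted p = 0.0443 and 0.0175), calls that were lost when any of several arrays was left out. The adjusted p of Oasl2 came to 0.101 and 0.143 without 1,5-naphthalenediol array 1 or 2, to 0.139 and 0.124 without DMSO array 2 or 3, and to 0.111 with no filter on probes. That of Ifi47 came to 0.0508 and 0.0532 without 1,5-naphthalenediol array 1 or 2, and to 0.0679 and 0.0670 without DMSO array 2 or 3. Several well-known members were not called, and their arrays overlapped. Isg15, a ubiquitin-like protein, had 24680.4, 11788 and 33472 units with 1,5-naphthalenediol, against 32475, 71547 and 55838 units with DMSO. Diol array 3 lay above DMSO array 1, and the change of -1.25 ± 0.43 had an adjusted p of 0.0592. Ifit3 had 536, 504 and 765 units with 1,5-naphthalenediol, against 687, 4601 and 4986 units with DMSO. Its change was -2.08 ± 0.84 (adjusted p = 0.0966). Cultures treated with the other compounds had low levels as well: 21 of the 50 genes were lower than in DMSO with 2,7-naphthalenediol, 38 with 1-naphthol and 39 with naphthalene. These comparisons share the DMSO arrays, which lie on slide 1, as do those of 2,7-naphthalenediol. The 1-naphthol and naphthalene arrays lie on slide 2, so their counts can include a difference between slides. Between 1,5-naphthalenediol and each of the other compounds, 2, 0 and 2 of the 50 genes were called, all lower with 1,5-naphthalenediol. At an unadjusted p below 0.05, 1 of the 50 differed from 1-naphthol in limma.

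**Figure D4:**
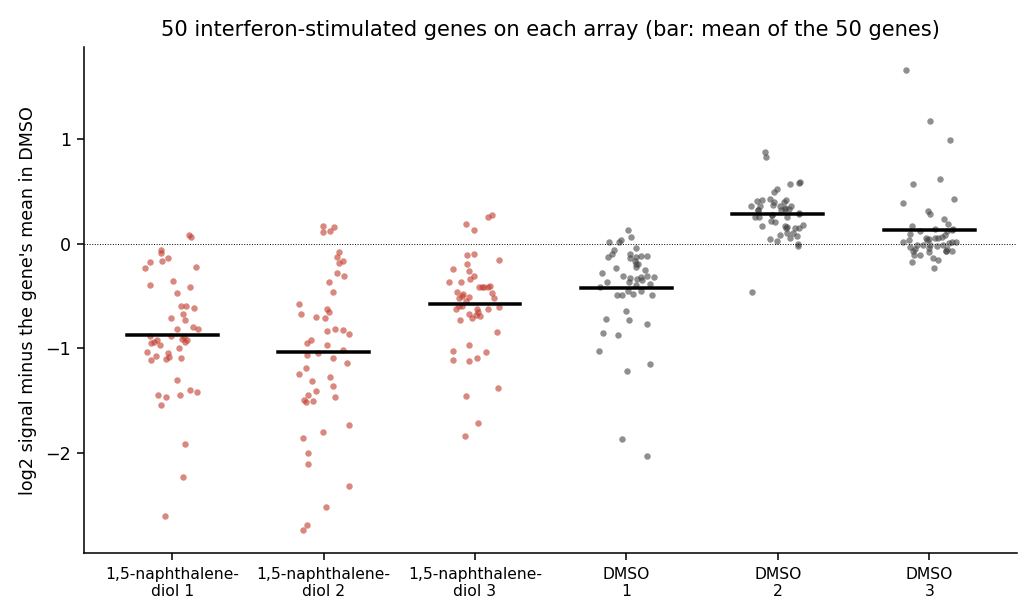
Each point is 1 of 50 interferon-stimulated genes on 1 array, as its log2 signal minus its mean on the 3 DMSO arrays, for 1,5-naphthalenediol (red) and DMSO (grey). Bars are means of the 50 genes. The diol arrays average -0.87, -1.04 and -0.58, and the DMSO arrays -0.42, 0.29 and 0.14.

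The interferon-stimulated response element was searched on both strands as GAAA, 2 bases of any kind and GAAA again. It was present in 3.77% of the 27457 promoters and 3.07% of those of genes tested, in 16 of 26 of those available for list members that fell, and in 8 of 13 of those for members that were not called. The promoters of Ifih1 and Tap1 are shown, with the matches in capitals. That of Ifih1 lies at GRCr8 chr3:67683969-67684218 on the minus strand, with the match beginning 59 bases before the start. That of Tap1 lies at GRCr8 chr20:4668544-4668793 on the minus strand, and its match, 121 bases before the start, reads on the opposite strand:
Ifih1: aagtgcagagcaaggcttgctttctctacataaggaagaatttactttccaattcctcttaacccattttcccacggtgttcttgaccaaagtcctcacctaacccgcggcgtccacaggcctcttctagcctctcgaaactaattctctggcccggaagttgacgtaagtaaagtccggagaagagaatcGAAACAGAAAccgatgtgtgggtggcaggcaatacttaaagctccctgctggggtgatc
Tap1: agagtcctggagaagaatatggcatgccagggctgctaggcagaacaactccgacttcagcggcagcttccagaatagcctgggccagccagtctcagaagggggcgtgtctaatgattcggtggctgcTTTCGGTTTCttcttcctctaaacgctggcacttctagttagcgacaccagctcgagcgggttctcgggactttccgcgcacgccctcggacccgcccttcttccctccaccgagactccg

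Many genes of the amino acid response driven by the factor ATF4 fell. Of 32 tested genes, 14 fell and 2 rose (1 rose without DMSO array 3), and the median change was -0.12. The falls numbered 12 to 15 with any 1 array left out. Asns, which makes asparagine, had 10206, 9945 and 10178 units with 1,5-naphthalenediol, against 12652, 12652 and 12681 units with DMSO. The arrays within each group were nearly equal (log2 change -0.32 ± 0.03, adjusted p = 6.2e-05). Phgdh and Mthfd2, of serine synthesis and mitochondrial folate metabolism, fell by 0.29 and 0.29 (adjusted p = 0.00287 and 0.00243). Nupr1 and Atf3, stress-induced regulators, fell by 0.54 and 0.43 (adjusted p = 8.7e-05 and 0.00348). Fgf21, a hormone that the liver secretes in fasting and stress, had 762, 812 and 755 units with 1,5-naphthalenediol, against 1175, 1037 and 1066 units with DMSO. It fell by 0.49 (adjusted p = 0.000221).

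Other secreted factors of the liver fell with it. Of 25 hepatokines, 9 fell and 2 rose (median -0.03). Angptl8 and Angptl4, which inhibit lipoprotein lipase, fell by 0.68 and 0.50 (adjusted p = 0.000133 and 0.000497), and the activin subunit Inhbe by 0.59 (adjusted p = 5.63e-05). The 2 that rose were Tsku and Igfbp1, by 0.45 and 0.43 (adjusted p = 3.59e-05 and 0.000538). Among 27 immediate early genes, 11 fell (7 without DMSO array 3) and 3 rose (1 without 1,5-naphthalenediol array 1 or 2 or DMSO array 1, or when the median set the scale). The median was -0.12. Klf10, a repressor induced by TGF-beta, had 2190.3, 2183 and 1939 units with 1,5-naphthalenediol, against 3453, 3472 and 3582 units with DMSO. The log2 change was -0.74 ± 0.05 (adjusted p = 3.93e-06). The phosphatase Dusp10 and the AP-1 subunit Junb fell by 0.52 and 0.41 (adjusted p = 0.00039 and 0.00138).

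Cytokine signalling genes went both ways. Of 29 tested inflammatory genes, 9 fell and 3 rose (median -0.12). The falls came to 4 without 1,5-naphthalenediol array 2 or DMSO array 3 and to 5 without DMSO array 2. Socs3, the feedback inhibitor of cytokine receptors, had 193, 188 and 183 units with 1,5-naphthalenediol, against 98.2, 103 and 102 units with DMSO. It rose by 0.89 ± 0.05 (adjusted p = 2.42e-07). Its relative Socs2, the feedback inhibitor of growth hormone signalling, had 341, 317 and 388 units with 1,5-naphthalenediol, against 549, 674 and 611 units with DMSO. It fell by 0.81 (adjusted p = 5.63e-05). Il33, an alarm cytokine kept in the nucleus, rose by 0.70 (adjusted p = 8.2e-06). Nfkb1 and the adhesion receptor Icam1 fell by 0.38 and 0.37 (adjusted p = 0.000433 and 0.000281).

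Genes of DNA replication rose. Of 42 tested cell cycle genes, 18 rose (14 to 17 with any 1 array left out) and 3 fell (1 without 1,5-naphthalenediol array 2 or DMSO array 1 or 3, and 7 when the median set the scale), with a median change of 0.12. By role, 12 of 18 replication genes, 4 of 11 genes of the G1 phase and 2 of 13 genes of mitosis rose. E2f1, the factor that switches on the entry into S phase, had 328, 333 and 326 units with 1,5-naphthalenediol, against 228, 199 and 224 units with DMSO. It rose by 0.61 ± 0.07 (adjusted p = 0.000177). Mcm6, of the replicative helicase, had 172, 149 and 159 units with 1,5-naphthalenediol, against 109.7, 113 and 110.3 units with DMSO. It rose by 0.53 ± 0.07 (adjusted p = 0.000404), and its partners Mcm2, Mcm4 and Mcm7 rose by 0.39, 0.44 and 0.26 (adjusted p = 0.000118, 0.000827 and 0.000992). The cyclins Ccne1 and Ccne2, which drive the entry into S phase, rose by 0.38 and 0.49 (adjusted p = 0.000419 and 0.00119). Common markers of dividing cells did not move together. Mki67, Ccnb1 and Ccna2 changed by -0.12, -0.11 and -0.25 and were not called (adjusted p = 0.212, 0.442 and 0.0843). Cdk1 rose by 0.47 (adjusted p = 0.000959), and Ccnb2 was called lower.

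E2F sites were searched as TTTNGCGC on both strands and found in 1.37% of the 27457 promoters and 2.22% of those of genes tested. They stood in 6 of 13 promoters of list genes that rose, Cdk1, Mcm2, Mcm6 and Mcm7 among them, in 0 of 2 of those that fell and in 2 of 17 not called. The promoter of Mcm6 is shown from GRCr8 chr13:42404353-42404602 on the minus strand. Its capitals span 2 overlapping matches on opposite strands, which begin 139 and 135 bases before the start:
Mcm6: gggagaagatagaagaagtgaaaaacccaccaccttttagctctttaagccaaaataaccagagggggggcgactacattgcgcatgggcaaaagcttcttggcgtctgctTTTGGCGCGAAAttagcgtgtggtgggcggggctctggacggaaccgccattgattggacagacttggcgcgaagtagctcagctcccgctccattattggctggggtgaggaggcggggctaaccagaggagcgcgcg

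Of 28 tested targets of p53, 2 rose and 5 fell, beside 9.42% and 12.8% of all genes, and the median change was 0.05. The 5 falls held with any 1 array left out. The 2 rises came to 0 without 1,5-naphthalenediol array 1 or DMSO array 1, and to 1 without 1,5-naphthalenediol array 3 or DMSO array 2 or 3. They came to 0 as well when the median set the scale or with the replicate number as a block. Cdkn1a and Mdm2, the best known readouts of p53, changed by 0.06 and 0.14 (adjusted p = 0.229 and 0.0734). Apaf1, which activates caspases, and Casp12, a caspase of the endoplasmic reticulum, fell by 0.57 and 0.66 (adjusted p = 0.000246 and 0.0027). Of 27 genes of apoptosis and survival, 9 fell and 3 rose (1 without DMSO array 1), with a median of -0.05.

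The enzymes of cholesterol synthesis fell along much of the pathway. Of 37 tested genes of cholesterol synthesis, uptake and export, 18 fell (14 to 17 with any 1 array left out) and 2 rose, with a median change of -0.12. Among the 21 enzymes of synthesis, 14 fell and 1 rose. Hmgcs1, which makes HMG-CoA, had 23172, 24456 and 22526 units with 1,5-naphthalenediol, against 35039.9, 33025 and 33619.9 units with DMSO. The log2 change was -0.54 ± 0.05 (adjusted p = 2.46e-05). Fdps, which makes farnesyl diphosphate, had 31999, 31951 and 30675 units with 1,5-naphthalenediol, against 48365, 46675 and 48061 units with DMSO. The groups lay well apart (log2 change -0.60 ± 0.04, adjusted p = 2.57e-06). Idi1, Sqle, Lss, Cyp51, Msmo1 and Hsd17b7, which follow one another in the pathway, fell by 0.44, 0.38, 0.32, 0.44, 0.47 and 0.44 (adjusted p = 0.000213, 5.01e-05, 0.000992, 0.000171, 3.1e-05 and 0.000811). The sterol regulatory element was searched on both strands as TCACNCCAC and found in 1.13% of the 27457 promoters and 1.22% of those of genes tested. It was found in 0 of 16 promoters of list genes that fell, 0 of 1 that rose and 0 of 10 not called, so these letters are not in those windows.

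Fatty acid synthesis fell in part. Of 35 genes, 11 fell and 5 rose (3 rose without 1,5-naphthalenediol array 2 or DMSO array 2, or when the median set the scale), with a median of -0.11. Acly and Acss2, which supply acetyl-CoA, fell by 0.59 and 0.59 (adjusted p = 6.83e-05 and 3.1e-05). Thrsp, a regulator of lipogenesis, had 3407, 3994 and 3009 units with 1,5-naphthalenediol, against 5673, 5162 and 4950.1 units with DMSO. It fell by 0.61 (adjusted p = 0.000622). Srebf1, the transcription factor of lipogenesis, rose by 0.44 (adjusted p = 0.00449). Of 50 targets of PPAR-alpha and genes of fatty acid oxidation, 19 fell and 4 rose (median -0.12). The falls came to 11 without 1,5-naphthalenediol array 3, 9 without DMSO array 1 and 12 without DMSO array 3, and to 11 with the slide as a block. The rises came to 2 without 1,5-naphthalenediol array 2 or DMSO array 2 or 3, when the median set the scale and with the replicate number as a block. Cpt1a, which brings fatty acids into the mitochondria, had 810.1, 802 and 744 units with 1,5-naphthalenediol, against 656, 569 and 566 units with DMSO. It rose by 0.40 ± 0.06 (adjusted p = 0.000749), as Ppara did. Ehhadh and Acot2, of peroxisomal and mitochondrial fatty acid metabolism, fell by 0.37 and 0.29 (adjusted p = 0.00595 and 0.00628).

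Falls among genes of energy metabolism were small. Of 24 genes of the tricarboxylic acid cycle and its entry, 11 fell and 2 rose (1 without DMSO array 1, under normexp or quantile normalization and with the replicate number as a block, none without 1,5-naphthalenediol array 1 or 2 or DMSO array 2 or 3, or when the median set the scale). The median was -0.11. Pdhb, of pyruvate dehydrogenase, fell by 0.35 (adjusted p = 0.000644). Of 50 genes of oxidative phosphorylation, 11 fell (6 without 1,5-naphthalenediol array 1, 5 without DMSO array 1) and 1 rose (none without 1,5-naphthalenediol array 2 or DMSO array 3), with a median of -0.09. When the median set the scale 19 fell, and 5 under quantile normalization. Sdhb, an iron-sulfur subunit of complex II, had 15486, 15898 and 15483 units with 1,5-naphthalenediol, against 18748, 17434 and 18603 units with DMSO. It fell by 0.22 (adjusted p = 0.00162). Among 43 genes of glycolysis, glucose synthesis and hypoxia, 16 fell and 4 rose (2 without 1,5-naphthalenediol array 1 or 2 or DMSO array 3), with a median of -0.10. Gys2, the liver glycogen synthase, had 23382, 25579.8 and 24337 units with 1,5-naphthalenediol, against 36992, 36185 and 36036 units with DMSO. It fell by 0.58 (adjusted p = 2.25e-05). Pklr, the liver pyruvate kinase, fell by 0.51 (adjusted p = 0.000204).

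Of 41 genes of the urea cycle and amino acid breakdown, 12 were higher and 7 lower (median 0.01), and 8 were higher and 10 lower when the median set the scale. Of the 35 genes of amino acid breakdown alone, 9 rose and 6 fell. Aass, which starts the breakdown of lysine, had 142, 140.1 and 143 units with 1,5-naphthalenediol, against 73.7, 83.1 and 65.1 units with DMSO. It rose by 0.95 ± 0.09 (adjusted p = 4.57e-05). Bcat2, the mitochondrial aminotransferase of branched-chain amino acids, had 205, 202 and 200.03 units with 1,5-naphthalenediol, against 120.0, 105 and 115 units with DMSO. It rose by 0.84 ± 0.07 (adjusted p = 1.61e-05). Tdo2, Tat and Hgd, which break down tryptophan and tyrosine, rose by 0.44, 0.38 and 0.43 (adjusted p = 0.000379, 0.00744 and 0.000289). Glul, glutamine synthetase, had 1487, 1327 and 1843 units with 1,5-naphthalenediol, against 2113, 2539 and 2112 units with DMSO. It fell by 0.55 (adjusted p = 0.00384). Of 36 genes of hepatocyte identity, 2 rose and 4 fell, with a median of -0.07, and 11 fell when the median set the scale. The rises came to 0 without 1,5-naphthalenediol array 2 or DMSO array 3, to 1 without DMSO array 1 or 2 and to 4 without 1,5-naphthalenediol array 3. Hnf4a and Alb, the master regulator and albumin, changed by 0.07 and -0.09 (adjusted p = 0.485 and 0.103). Of 48 genes of complement, coagulation and the acute phase, 9 fell and 2 rose (1 without 1,5-naphthalenediol array 1 or DMSO array 1, none without 1,5-naphthalenediol array 2 or DMSO array 3, or when the median set the scale), with a median of -0.05. Of 16 clock genes, 4 rose and 3 fell (median 0.11), and 2 rose and 4 fell when the median set the scale. Cry1, a repressor of the clock, had 1206, 1179 and 1103 units with 1,5-naphthalenediol, against 695, 663 and 682 units with DMSO. It rose by 0.77 ± 0.05 (adjusted p = 2.25e-06).

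Cytoskeletal genes went both ways. Of 59 tested genes of actin, microtubules and muscle-type contraction, 13 rose and 20 fell (12 without DMSO array 3), with a median of -0.06. Of 13 tubulin and microtubule genes 8 rose and 1 fell, and of 26 actin genes 2 rose and 11 fell. The tubulins Tuba1c, Tuba1b, Tuba4a, Tubb5 and Tubb4b rose by 0.50, 0.44, 0.45, 0.33 and 0.32 (adjusted p = 7.5e-05, 9.33e-05, 1.05e-05, 0.000123 and 0.000148). Tagln, an actin-binding protein of smooth muscle and stellate cells, had 3885, 3546 and 3804 units with 1,5-naphthalenediol, against 6521, 6144 and 6169 units with DMSO. It fell by 0.75 (adjusted p = 0.000419). Vim, the intermediate filament of mesenchymal cells, had 3265, 2672 and 2806 units with 1,5-naphthalenediol, against 5099.6, 4652 and 4616 units with DMSO. It fell by 0.72 (adjusted p = 0.000148). Myl9 fell by 0.76 (adjusted p = 0.000904). Of 12 markers of stellate cells and fibroblasts, Tagln among them, 5 were detected, with a summed signal of 4021 to 4407 units with the diol and 6787 to 6986 units with DMSO. Most of that sum is the signal of Tagln. Of the 5 markers tested, 1 rose (Reln), 1 fell (Tagln) and 3 were not called, with a median change of -0.02. Col1a1, Col3a1, Dcn, Lrat, Lum, Ngfr and Pdgfrb were not above background on any of the arrays. Fewer cells of a type and less RNA per cell cannot be told apart in such cultures. Of 36 genes of autophagy and lysosomes, 16 fell (10 without DMSO array 1 or 2) and none rose (1 without 1,5-naphthalenediol array 3), with a median of -0.12. At an unadjusted p below 0.05, 1 of the 36 was higher with the diol in limma. Lamp2, a membrane protein of the lysosome, fell by 0.23 (adjusted p = 0.00465).

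Several of the largest single changes lay in genes that were below background in DMSO. Those given below with a lower bound of the fold were well above background on all 3 diol arrays. A gene entered the test through any of the 5 groups in which all 3 arrays were well above background. For any gene that passed through the diol alone, a rise was partly built into the selection. The same rule let in Ahrr and Aldh3a1, of which Aldh3a1 was also high with 1-naphthol. Which of these genes passed through the diol alone is not given here. Their adjusted p rests on DMSO signals below background. Cimap2, a protein of cilia and sperm microtubules, had 57.0, 75.8 and 54.6 units with 1,5-naphthalenediol, against 4.21, 4.63 and 5.67 units with DMSO. The DMSO arrays were below background, so the rise is at least 3.81-fold (log2 3.69 ± 0.27, adjusted p = 4.86e-06). Coro1a, an actin regulator best known from leukocytes, had 31.6, 45.0 and 54.9 units with 1,5-naphthalenediol, against 5.18, 10.2 and 4.03 units with DMSO. It rose at least 2.64-fold (log2 2.84 ± 0.35, adjusted p = 0.000188). Hcst, an adaptor of receptors on natural killer and T cells, rose at least 1.63-fold (adjusted p = 0.00336). Cd52, a surface peptide of lymphocytes, was above background on 3 diol arrays and 1 DMSO array and rose by 1.92 (adjusted p = 0.0148), a size that rests on 2 DMSO arrays not well above background. Its adjusted p was 0.0528 without 1,5-naphthalenediol array 2, 0.0547 and 0.0590 without DMSO array 1 or 3, and 0.0517 on slide 1 alone. Among the lymphocyte markers, Cd3e, Cd4, Cd8a and Ptprc were never above background, and the 11 markers on the array summed to 136 to 163 units with the diol and 158 to 170 units with DMSO. The part of other cells in these rises was not tested. Prkar2b, which regulates protein kinase A, rose at least 3.14-fold (adjusted p = 0.00561). Prom2, Xirp2 and Mgarp rose at least 1.71-fold, 1.88-fold and 1.19-fold (adjusted p = 0.00124, 0.00103 and 0.000216). Sh3tc1 had 124, 117 and 128 units with 1,5-naphthalenediol, against 35.4, 25.7 and 28.7 units with DMSO. It rose by 2.05 ± 0.21 (adjusted p = 6.83e-05).

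Among the falls, several genes belong to heart and skeletal muscle. Myl2, the regulatory myosin light chain of the ventricle, had 20.6, 26.1 and 22.2 units with 1,5-naphthalenediol, against 67.7, 83.8 and 89.9 units with DMSO. It fell by 1.81 (adjusted p = 1.22e-05). Pln, which restrains the calcium pump of muscle, had 138, 134 and 131 units with 1,5-naphthalenediol, against 356, 346 and 309 units with DMSO. It fell by 1.33 (adjusted p = 1.7e-05). Mybpc3, myosin-binding protein C, was above background on 2 of 3 diol arrays and fell by 1.79 (adjusted p = 0.000175). Csrp3, a muscle protein as well, rose by 1.32 (adjusted p = 0.000764), so the muscle-type genes did not move as 1 group. Cytl1, a secreted cytokine-like protein, and Rem1, a small GTPase, were below background on all diol arrays. Both were well above it on all 3 DMSO arrays, which was enough to enter the test, so a fall can be partly built into their selection. They fell at least 1.69-fold and 2.79-fold (adjusted p = 0.000223 and 0.00305). Tlr2, a receptor for bacterial lipoproteins, had 12.5, 17.5 and 31.1 units with 1,5-naphthalenediol, against 52.99, 68.6 and 61.7 units with DMSO. It was above background on 1 of 3 diol arrays and fell by 1.68 (adjusted p = 0.00129), a size that includes the other 2 arrays at their measured signal. Tppp3, which bundles microtubules, and Tac4, a tachykinin, were above background on 1 and 2 of the 3 diol arrays and fell by 1.76 and 1.58 on the same terms (adjusted p = 0.000176 and 0.000214). Zfp365 and LOC100910973 fell by 1.44 and 1.42 (adjusted p = 0.0153 and 0.00262). The adjusted p of Zfp365 came to 0.0561 without 1,5-naphthalenediol array 2 and to 0.0610 and 0.0599 without DMSO array 2 or 3. Sdr16c5, a retinol dehydrogenase, had 37.0, 34.7 and 52.6 units with 1,5-naphthalenediol, against 103, 124 and 123 units with DMSO. It fell by 1.51 (adjusted p = 4.18e-05).

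1,5-Naphthalenediol was then set against its analogs at the same dose and time, in 3 pairs, with p adjusted over all genes and the 3 pairs together. The analogs differ in their hydroxyl groups: 2,7-naphthalenediol carries its pair at other positions, 1-naphthol has a single one, and naphthalene has none. The diol differed from 2,7-naphthalenediol in 3030 genes (15.3%), with 1359 higher (6.87%) and 1671 lower (8.45%), and from 1-naphthol in 2425 (12.3%), with 1081 higher (5.46%) and 1344 lower (6.79%). From naphthalene it differed in 4287 (21.7%), with 1971 higher (9.96%) and 2316 lower (11.7%). 1-Naphthol and naphthalene lie on slide 2 with 1,5-naphthalenediol array 3. Blocking by slide therefore compares these analogs with array 3 of the diol alone, and 2,7-naphthalenediol with its arrays on slide 1 alone. With the slide as a block the counts were 1826, 704 and 1550. Leaving out 1 array of the diol, the analog or DMSO moved the first count to between 2039 and 2872, the second to between 1252 and 3563 and the third to between 2664 and 5191. The lowest of each came without 1,5-naphthalenediol array 2, and the highest counts against 1-naphthol and naphthalene came without array 3. Differences from the analogs are given below without the slide block unless it is named. Those from 1-naphthol and naphthalene can thus include a difference between slides.

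Cyp1a1 and Aldh3a1 were high with 1,5-naphthalenediol and 1-naphthol. Cyp1a1 had 8129, 6450.3 and 8183 units with 1,5-naphthalenediol, 2293, 2262 and 2899.7 with 2,7-naphthalenediol, 9469.5, 7767 and 8181 with 1-naphthol, 1867, 1756 and 2005 with naphthalene and 1467, 1715 and 1673 with DMSO. The diol exceeded 2,7-naphthalenediol by 1.61 ± 0.12 (adjusted p = 1.05e-05) and naphthalene by 2.01 ± 0.12 (adjusted p = 1.68e-06). Against 1-naphthol the difference was -0.16, with a 95% interval of -0.43 to 0.10, and was not called (adjusted p = 0.389). Aldh3a1 had 133, 129 and 107.3 units with 1,5-naphthalenediol, 49.6, 37.7 and 44.6 with 2,7-naphthalenediol, 204, 191 and 189 with 1-naphthol and 8.56, 10.3 and 9.999 with naphthalene. It was higher with 1,5-naphthalenediol than with 2,7-naphthalenediol by 1.49 ± 0.11 (adjusted p = 6.98e-06) and lower than with 1-naphthol (difference -0.67 ± 0.11, adjusted p = 0.00162). With the slide as a block, only 1,5-naphthalenediol array 3 is compared with 1-naphthol. The Cyp1a1 difference was then -0.04 and that of Aldh3a1 was -0.86.

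Gstp1, Nqo1, Akr1b8 and Hspb1 were higher with 1,5-naphthalenediol than with each analog. Gstp1 had 9342, 9906 and 9383 units with 1,5-naphthalenediol, 2460.0, 2430.4 and 2585 with 2,7-naphthalenediol, 3598, 3808 and 3714 with 1-naphthol and 2090.2, 2033 and 2137 with naphthalene. The differences were 1.94 ± 0.04, 1.36 ± 0.04 and 2.19 ± 0.04 (adjusted p = 1.14e-10, 2.69e-09 and 1.04e-10). Nqo1 differed by 1.22 ± 0.06, 0.39 ± 0.06 and 1.56 ± 0.06 in the same order of analogs (adjusted p = 2.35e-07, 0.00126 and 1.98e-08). Akr1b8 differed by 1.48 ± 0.05, 1.18 ± 0.05 and 1.74 ± 0.05 (adjusted p = 3.67e-09, 3.05e-08 and 9.42e-10). Hspb1 stood apart in the same way, with 12976, 10366 and 9985 units with 1,5-naphthalenediol, 2093, 1910.2 and 2151 with 2,7-naphthalenediol, 3209, 2992 and 2603 with 1-naphthol and 1978, 1942 and 1754 with naphthalene. The diol exceeded them by 2.43 ± 0.10, 1.92 ± 0.10 and 2.55 ± 0.10 (adjusted p = 3.89e-08, 4.81e-07 and 2.46e-08). All these calls held with any 1 array of the pair left out.

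**Figure D5:**
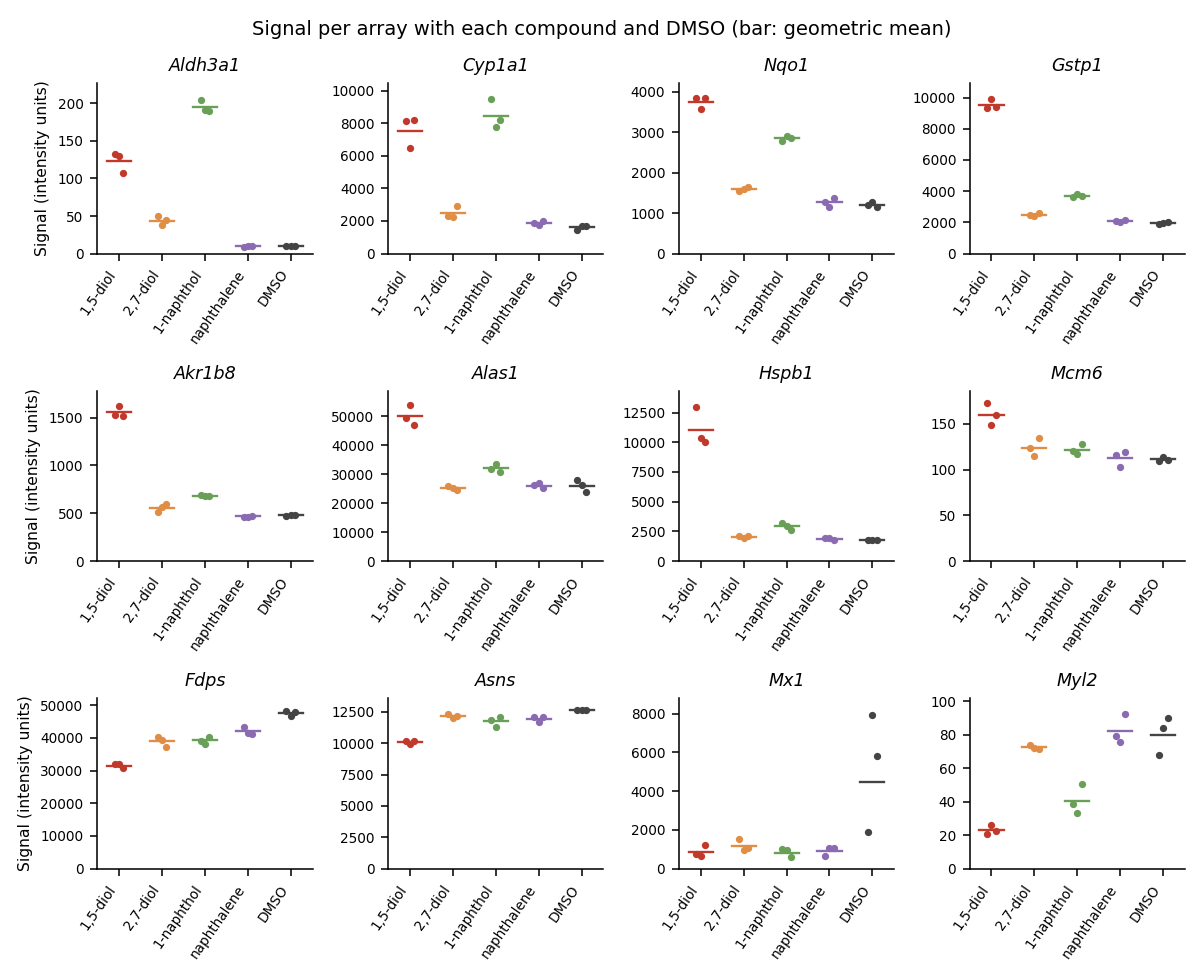
Signal of 12 genes on each array, in scaled intensity units on a linear axis from 0, with 1,5-naphthalenediol, 2,7-naphthalenediol, 1-naphthol, naphthalene and DMSO from left to right. Points are arrays and bars geometric means. Gstp1, Akr1b8 and Hspb1 are highest with 1,5-naphthalenediol, Cyp1a1 is high with 1,5-naphthalenediol and 1-naphthol, and Mx1 is low with all 4 compounds.

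Alas1 was higher with 1,5-naphthalenediol than with 2,7-naphthalenediol, 1-naphthol and naphthalene by 0.99, 0.65 and 0.94 (adjusted p = 3.86e-06, 9.03e-05 and 5.59e-06). The replication gene Mcm6 was higher by 0.37, 0.40 and 0.50 (adjusted p = 0.00557, 0.00376 and 0.000857). Its call against 1-naphthol was lost with the slide as a block, where only 1,5-naphthalenediol array 3 is compared. Fdps was lower with 1,5-naphthalenediol, with differences of -0.31, -0.32 and -0.42 (adjusted p = 0.000528, 0.000414 and 6.94e-05), and so was Asns, with differences of -0.27, -0.22 and -0.24 (adjusted p = 0.000386, 0.00141 and 0.00072). Of the 32 ATF4 genes 18 were lower than with 2,7-naphthalenediol and none higher, beside 8.45% of all genes lower, and 2 were higher at an unadjusted p below 0.05 in limma. With 2,7-naphthalenediol itself 6 of these 32 genes were higher than with DMSO, and their median change was 0.03, against the -0.12 of 1,5-naphthalenediol over the same DMSO arrays. Of the 42 cell cycle genes 18 were higher than with naphthalene and 1 lower, beside 9.96% of all genes higher, and 4 were higher and 3 lower with naphthalene than with DMSO. These counts are without the slide block.

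Other genes set the diol apart from some of the analogs. Cyp2b3 was higher than with 2,7-naphthalenediol by 0.49 and than with naphthalene by 0.37 (adjusted p = 7.95e-05 and 0.000505), while against 1-naphthol the difference was -0.05 (95% interval -0.16 to 0.05, adjusted p = 0.481). Myl2 was lower with 1,5-naphthalenediol, with differences from 2,7-naphthalenediol, 1-naphthol and naphthalene of -1.66, -0.82 and -1.85 (adjusted p = 4.17e-05, 0.00374 and 1.88e-05). Slc43a3, a carrier of nucleobases, was lower than with 1-naphthol (difference -1.43, adjusted p = 9.35e-05), and against 2,7-naphthalenediol the difference was -0.07 (95% interval -0.39 to 0.25). Against DMSO, Slc43a3 changed by 0.19 with 1,5-naphthalenediol and was not called (limma adjusted p = 0.386). With 1-naphthol it was 1.62 above DMSO (limma adjusted p = 0.000114). Mx1 had 732, 667 and 1243 units with 1,5-naphthalenediol, 1523, 980.4 and 1065 with 2,7-naphthalenediol, 1034, 951 and 578 with 1-naphthol and 660.0, 1080.3 and 1041 with naphthalene. Its differences of -0.46 (-1.46 to 0.53), 0.03 (-0.97 to 1.03) and -0.10 (-1.09 to 0.90), with 95% intervals in parentheses, were not called (adjusted p = 0.529, 0.973 and 0.912).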

How the data were processed

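The authors scanned 1-colour Cy3 arrays. Per the file headers, Feature Extraction 10.7.1.1 made the deposited intensity of each spot, with background subtracted, and did not normalize between arrays. The headers name build rn4, so no coordinates of theirs are given. Control spots and outlier spots (265 to 354 per array) were left out. The log2 intensity minus the 75th percentile of each array was averaged over spots of a probe. Of 45598 probes, 21229 took a symbol from the RefSeq table (GRCr8) and the rest kept their accession. Probes well above background on all 3 arrays of a group were kept (23542), and the brightest probe of a gene was used, which gave 19784 genes. The precision is limited by 3 arrays per group.

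limma 3.58.1 (R 4.3.3, with data.table, version 1.17.8) fitted the 5 groups over all 15 arrays, and the script was tested on simulated data. Where a group lay below background on all its arrays, its fold is a lower bound against the lowest signal well above background. Genes were named from the 15 largest rises and falls that held with the slide as a block, up to 4 members per list and direction, further list members for their role, and the 5 largest differences each way from each compound. The members, lists and rule were chosen with earlier results of these data known. Normexp, listed as an alternative, used the median signal. No array was left out of the main comparison. Some genes of the lists are not reported by name here.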

Additional observations from a re-analysis of the deposited data

How the results depend on the processing

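The 1863 genes higher and 2524 lower with 1,5-naphthalenediol than with DMSO came to 1061 and 1361 with no filter on dim probes (38995 genes tested), 1098 and 1277 with only the 6 arrays of these groups, and 59 and 28 with replicates 1 and 2 alone. Leaving out 1 array gave 1278 (without DMSO replicate 3) to 1820 genes higher and 1726 to 2568 lower. Median scaling gave 1244 higher, within 1.5 times of the 1863, and 3616 lower. Normexp, quantile normalization, probe means, the stricter filter and the slide block kept both counts within 1.5 times. Against DMSO the slide block gives the same counts as leaving out 1,5-naphthalenediol replicate 3 (1820 and 2568), so these are not separate checks. No pairing of the arrays by replicate number was found: 2 of 30 same-number pairs correlated above 0.1, and 5 of 15 arrays had their closest match in another group under the same number. With the replicate number as a block, 1752 genes were higher and 2343 lower.

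The genes that differed from 2,7-naphthalenediol, 1-naphthol and naphthalene came to 1390, 893 and 2016 with no filter and to 1826, 704 and 1550 with the slide block. On slide 1 alone, also added after seeing the data, 1601 differed from 2,7-naphthalenediol. Leaving out 1 array gave 2039 to 2872, 1252 to 3563 and 2664 to 5191, where the arrays of the 3 analogs were added to this check after seeing the data. The setting with no filter tests more genes. The slide block compares fewer arrays, with only 1,5-naphthalenediol array 3 against 1-naphthol and naphthalene. How much of each move comes from this, and the cause of the other moves, was not tested. Signals near background limit what can be seen of the dimmest genes.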
